A study of Mus musculus with 16 samples.

Results

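The genes examined here encode enzymes of branched-chain amino acid (BCAA) catabolism and were measured in brown adipose tissue (BAT). The set holds 10 genes of 49066 genes in all: *Bcat2*, *Bckdha*, *Bckdhb*, *Dbt*, *Bckdk*, *Ppm1k*, *Ivd*, *Mccc1*, *Pcca* and *Hibadh*. They were listed by name for their place in the pathway.

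Leucine, isoleucine and valine are broken down in mitochondria, where BCAT2 first transfers their amino group to a keto acid acceptor and the branched-chain ketoacid dehydrogenase (BCKDH) complex then commits the resulting ketoacids to oxidation. BCKDH is switched off when the kinase BCKDK phosphorylates its E1 subunit and switched on when the phosphatase PPM1K removes the phosphate, after which separate branches yield acetyl-CoA, acetoacetate and propionyl-CoA. Brown adipocytes take up BCAA and bring them into mitochondria through the carrier SLC25A44, and BCAA serve as a fuel during thermogenesis.

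The study asked how loss of *Gdf15*, which encodes a stress-induced cytokine, from thermogenic adipocytes alters mice on a high-fat diet (HFD). RNA from BAT of 16 mice, 1 library per mouse, was sequenced after 12 weeks of HFD, when the mice were 18 weeks old. The 4 groups of 4 mice (WT and KO of each sex) were all on the C57BL6/J background and carried *Gdf15* fl/fl alleles. KO mice also carried the Cre transgene Tg(Ucp1-cre)1Evdr, which WT mice lacked, so that WT mice are floxed controls without Cre. Cre was driven by the *Ucp1* promoter, so recombination is directed to thermogenic adipocytes and other cells of BAT keep the gene.

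Values are TPM, a unit that corrects reads for transcript length and gives every library the same total. The TPM of all transcripts of a gene were added. Read totals cannot be recovered from TPM: depth is unknown, and precision is given by the spread between mice. Log2 fold changes were taken of TPM + 0.5, which understates changes of genes with low TPM. Genes with a mean of at least 1 TPM were tested with limma and Benjamini-Hochberg adjustment. A gene is called here when its adjusted p was under 0.05. Libraries are named by group and replicate, and replicates are listed from 1 to 4.

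*Gdf15* itself was measured at 0.368, 0.690, 1.55 and 3.81 TPM in male WT, 0.0915, 0.0801, 0.255 and 0.272 in male KO, 0.0622, 0.311, 0.170 and 0.290 in female WT, and 0, 0, 0.0794 and 0 in female KO. All male KO libraries were below all male WT libraries, and 3 of the 4 female KO libraries were listed at 0, while female WT was already low. The log2 difference in males was -1.38 (exact two-sided permutation p = 0.0286, the smallest possible with 4 against 4). In females it was -0.43 (exact two-sided permutation p = 0.0571). In the bulk tissue, fewer cells of a type and less RNA per cell cannot be told apart.

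The brown adipocyte markers differed in level: *Ucp1* ranged from 2352 to 4423 TPM, *Cidea* from 989.8 to 1915 TPM, *Cox8b* from 1612 to 4974 TPM and *Cpt1b* from 317.5 to 558 TPM. *Prdm16*, *Ppargc1a*, *Dio2* and *Elovl3* were lower, with lowest values of 3.79, 4.39, 4.66 and 7.69 TPM, and all 8 were above 0 in every library.

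Some libraries stood apart before any comparison. In 530 genes whose main coding transcript is at least 1500 bases long, the share of a gene's TPM given to annotated transcripts under 1000 bases that end within 200 bases of the same 3′ end averaged 17.04, 23.1, 15.8 and 15.9% in male WT, 17.98, 14.7, 14.04 and 14.9 in male KO, 17.2, 14.9, 15.7 and 16.3 in female WT, and 28.4, 18.2, 19.3 and 24.3 in female KO. Female KO 1, female KO 4 and male WT 2 had the highest shares, and all female KO libraries were above all female WT libraries. The matching share for short transcripts at the 5′ start (2665 genes) ranged only from 7.33 to 9.59%, with the lowest value in female KO 1. Female WT 4 was apart in another way: 17.7% of its TPM belonged to transcripts without a match in the annotation, 16.5% to 1 transcript, against at most 0.480% in the other libraries. Between 34.5 and 59.8% of all TPM came from the mitochondrial genome.

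All 10 genes passed the TPM minimum. Their order by mean TPM over the 16 libraries was *Bckdha* (330.2), *Hibadh* (226), *Pcca* (201.5), *Ivd* (122), *Bckdhb* (103), *Mccc1* (88.5), *Bckdk* (72.9), *Bcat2* (72.3), *Dbt* (38.9) and *Ppm1k* (3.51). *Bckdha* was above *Hibadh* in 16 of 16 libraries, *Pcca* was above *Ivd* in 16, *Bcat2* above *Dbt* in 16 and *Dbt* above *Ppm1k* in 16. Over all libraries the neighbours *Bckdk* and *Bcat2* did not differ beyond their spread, with *Bckdk* higher in 9 of 16, but their order differed by group. The means of *Bckdk* and *Bcat2* were 78.3 and 67.8 TPM in male WT and 87.9 and 56.8 in male KO. In females they were 61.8 and 69.2 TPM in WT and 63.5 and 95.6 in KO. *Hibadh* was above *Pcca* in 14 libraries, *Ivd* above *Bckdhb* in 13, *Bckdhb* above *Mccc1* in 14 and *Mccc1* above *Bckdk* in 13. The phosphatase gene *Ppm1k* was the exception to a set of abundant genes: its mean exceeded that of 28.2% of all genes tested, against 86.5 to 98.0% for the other 9. Summed over the 10 genes, the level was 1099, 1439.9, 1282 and 1344 TPM in male WT, 1267, 1359, 1303 and 1238 in male KO, 1382, 1089, 1374 and 959.7 in female WT, and 1341, 1389.6, 1089.9 and 1196 in female KO. The sum overlapped between all groups and was lowest in female WT 4, which had the lowest value of its group for 8 of the 10 genes.

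**Figure D1:**
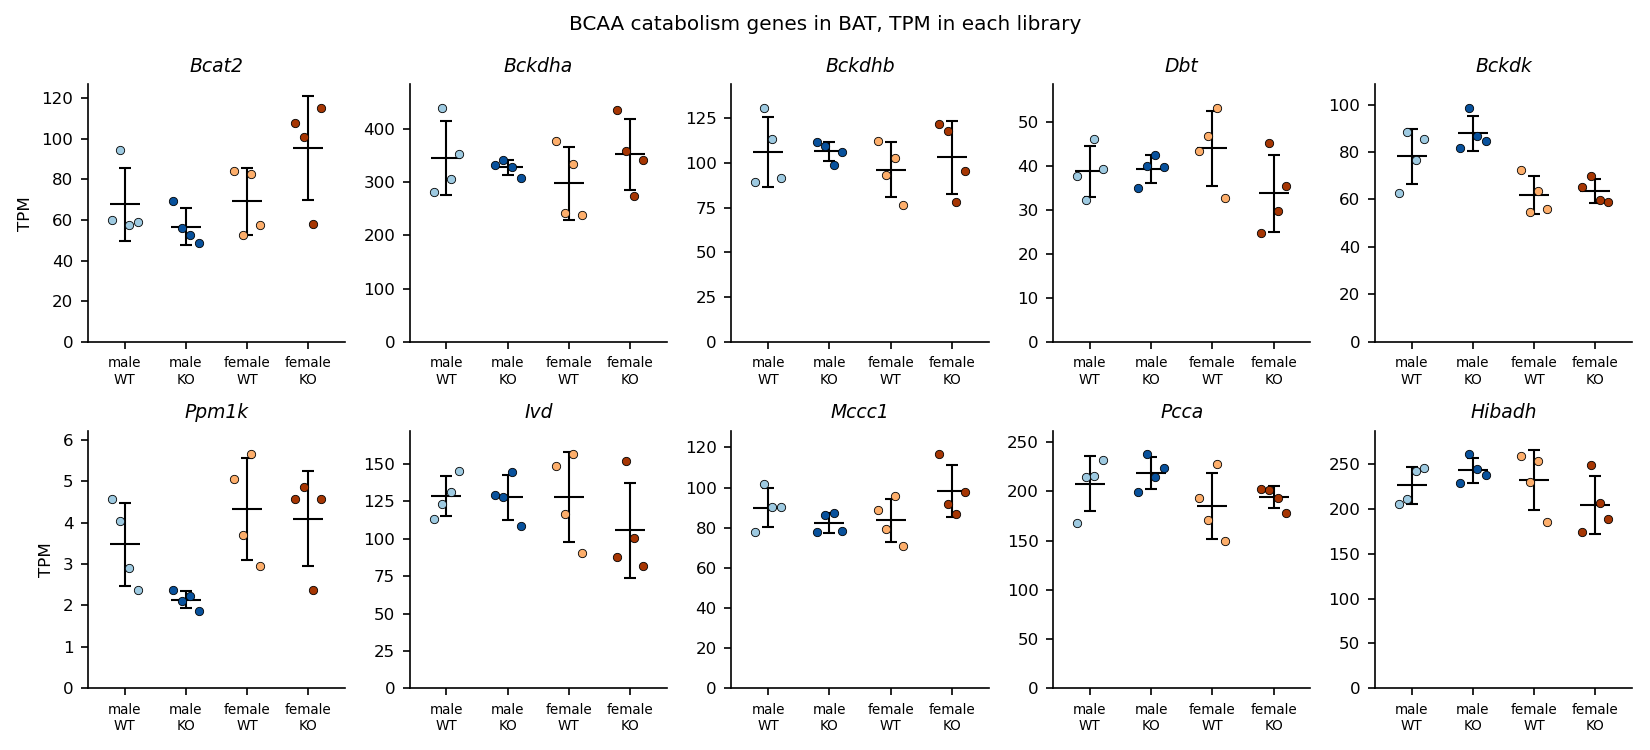
TPM (vertical axes, linear from 0) of the 10 BCAA catabolism genes in each library, with 1 point per mouse in each group, and the group mean with SD as bars. KO and WT points overlap in every panel except *Ppm1k* in males, where the nearest values are 2.37 TPM in KO and 2.38 TPM in WT.

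In males, the comparison of KO with WT called 0 of the 10 genes (limma), beside 0.00821% of all genes tested (1 of 12176). An unadjusted p under 0.05 was reached by 1 of the 10, *Ppm1k*, and by 2280 of all 12176 genes. In KO, 5 of the 10 were higher and 5 lower, with a median log2 fold change of 0.01, while the median over all genes tested was 0.16 and 9725 of them were higher. Rescaling each library by median-of-ratios factors brought the median over all genes to 0.00, and then 1 of the 10 genes was higher and 9 were lower, with a median of -0.16. KO and WT did not overlap for 1 of the 10 genes, against 10.2% of all genes tested.

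In females, the comparison of KO with WT also called 0 of the 10 genes (limma), and 0% of the 12141 genes tested. With median-of-ratios factors and all 16 libraries in 1 fit, a setting added after the data were seen, 566 genes were called in females and 49 in males, with 0 of the 10 among them. None of the 10 reached an unadjusted p under 0.05 (0 of 10), against 2075 of all genes. In KO, 6 of the 10 were higher and 4 lower, with a median of 0.06 beside 0.10 over all genes tested. With median-of-ratios factors, 3 were higher and 7 lower, with a median of -0.03. KO and WT did not overlap for 0 of the 10, against 8.08% of all genes.

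The sex difference in the KO effect, tested as an interaction over all 16 libraries, was called for 0 of the 10 genes and for 0% of 12210 genes (limma). In it, 0 of the 10 and 1735 of all genes had an unadjusted p under 0.05. The mean KO effect over both sexes was called for 0 of the 10 genes, beside 2.93% of all genes (358, of which 315 were higher in KO), and 0 of the 10 had an unadjusted p under 0.05 against 2929 of all genes (limma). The count of 358 ranged from 31 to 1055 with 1 library left out, and was 12 with the leading part of the library names, of unknown meaning, as covariate. The 10 genes had a median mean effect of 0.06, with 6 higher and 4 lower, beside 0.13 over all genes. Under median-of-ratios factors all 10 were lower, with a median of -0.08, beside 5907 lower and 6301 higher over all genes. The 13 TCA cycle genes examined were also all lower then, with a median of -0.18. Among WT mice, females and males differed in 0 of the 10 genes (limma), beside 0.0655% of all genes, and *Bckdk* was the 1 gene of the 10 with an unadjusted p under 0.05, against 569 of all genes. The groups overlapped for all 10, against 1.9% of all genes without overlap.

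*Bcat2* (ENSMUSG00000030826, chr7:45570153-45589711; all positions are from GENCODE M21 on GRCm38) encodes the mitochondrial transaminase. It was measured at 59.8, 94.6, 57.6 and 59.0 TPM in male WT, 69.4, 55.9, 52.8 and 48.9 in male KO, 84.1, 52.6, 82.6 and 57.5 in female WT, and 108, 101, 58.3 and 115 in female KO. The high values were in 3 of the 4 female KO libraries and in male WT 2, and KO and WT overlapped in both sexes. Its mean was 95.6 ± 25.5 TPM (SD, n = 4) in female KO and 69.2 ± 16.5 in female WT, a log2 fold change of 0.45 ± 0.25 (SE; limma adjusted p = 0.375), and in males the log2 fold change was -0.23 ± 0.18 (limma adjusted p = 0.489). The difference between these effects was 0.68 (limma adjusted p = 0.364). *Bcat2* was high in the libraries with the most short 3′ transcripts, whose part in this was not tested: without male WT 2, female KO 1 and female KO 4, the female log2 fold change was 0.18 and the difference between the sexes 0.24. Without male WT 2 the male log2 fold change was -0.06. A transcript of 917 bases annotated for nonsense-mediated decay, Bcat2-204, took 23.3% of the gene's TPM in female KO 1, 10.8% in female KO 4 and 9.43% in male WT 2, and at most 2.14% elsewhere.

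*Slc25a44*, the gene of the mitochondrial BCAA carrier of the SLC25 family, was measured at 20.9, 22.3, 28.9 and 28.0 TPM in male WT, 28.8, 35.5, 31.9 and 32.4 in male KO, 31.0, 23.9, 28.0 and 24.9 in female WT, and 19.4, 26.9, 22.3 and 20.3 in female KO. In males 3 of the 4 KO libraries were above every WT library, and in females 3 of the 4 KO libraries were below every WT library. The lower male WT values, 20.9 and 22.3 TPM, were in the libraries whose names lead with 5, a leading part that male KO lacked. Its log2 fold change was 0.37 ± 0.13 in males (limma adjusted p = 0.219) and -0.28 ± 0.15 in females (limma adjusted p = 0.349), and the difference of -0.64 was not called (limma adjusted p = 0.216). *Bcat1*, which encodes the cytosolic transaminase, was low everywhere: 0.231, 0.369, 0.408 and 1.16 TPM in male WT, 1.001, 1.90, 1.55 and 1.64 in male KO, 0.336, 0.162, 0.340 and 0.566 in female WT, and 0.377, 0.372, 0.423 and 0.154 in female KO. In males 3 of the 4 KO libraries were above every WT library. *Bcat1* passed the TPM minimum in males only, and there through the KO group, with a mean of 1.52 TPM against 0.542 in WT. Its male log2 fold change was 1.01 ± 0.29 (limma adjusted p = 0.187). No conclusion is drawn from it, since the group in which the gene was high decided that it was tested. The ratio of *Bcat2* to *Bcat1* ranged from 29.4 in male KO 2 to 747 in female KO 4.

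The BCKDH complex is built from the E1 subunits encoded by *Bckdha* (ENSMUSG00000060376, chr7:25629946-25658981) and *Bckdhb* (ENSMUSG00000032263, chr9:83925145-84124240), the E2 core encoded by *Dbt* (ENSMUSG00000000340, chr3:116513070-116549981) and the E3 subunit encoded by *Dld*. *Bckdha*, the most abundant of the 10 genes, was measured at 280.5, 439, 306 and 353 TPM in male WT, 332, 340.4, 328 and 308 in male KO, 376, 241, 333 and 238 in female WT, and 436, 357, 274 and 340.2 in female KO. *Bckdhb*, the partner subunit, was measured at 89.2, 131, 113 and 91.4 TPM in male WT, 111, 109, 99.0 and 106 in male KO, 112, 93.1, 103 and 76.3 in female WT, and 122, 118, 78.1 and 95.3 in female KO. The groups overlapped for both, with male WT 2 the highest of its group and female WT 4 the lowest of its group for each. Neither was called: for *Bckdha* the log2 fold change was -0.05 ± 0.14 in males and 0.25 ± 0.21 in females (limma adjusted p = 0.843 and 0.519), and for *Bckdhb* it was 0.02 ± 0.13 and 0.09 ± 0.19 (limma adjusted p = 0.941 and 0.798). The ratio of *Bckdha* to *Bckdhb* stayed between 2.59 and 3.86 in all libraries.

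Part of the *Bckdha* signal came from a short coding transcript of 751 bases, Bckdha-202, at 0, 92.0, 0 and 0 TPM in male WT, 7.07, 0.921, 0 and 0 in male KO, 0.0237, 0, 0 and 0 in female WT, and 164, 0.794, 18.2 and 86.4 in female KO. It was high in female KO 1, female KO 4 and male WT 2, the libraries with the most short 3′ transcripts, and near or at 0 in most others. The full-length transcript Bckdha-201 was at 272 TPM in female KO 1 and 254 in female KO 4, and at 376, 241, 333 and 238 in female WT. Without male WT 2, female KO 1 and female KO 4, the female log2 fold change of *Bckdha* was 0.10 and the male one, without male WT 2, 0.07.

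*Dbt* was measured at 37.6, 32.1, 46.1 and 39.2 TPM in male WT, 34.8, 40.0, 42.5 and 39.7 in male KO, 43.3, 46.7, 53.1 and 32.8 in female WT, and 24.7, 45.1, 29.7 and 35.4 in female KO. The lowest values were in female KO 1 and female KO 3, and the groups overlapped in both sexes. Its log2 fold change was 0.03 ± 0.12 in males (limma adjusted p = 0.916) and -0.39 ± 0.22 in females (limma adjusted p = 0.364), with a difference of -0.42 (limma adjusted p = 0.470) that was -0.18 without the 3 libraries with the most short 3′ transcripts. *Dld*, whose product also serves the pyruvate and 2-oxoglutarate dehydrogenase complexes, was measured at 239, 194, 329 and 321 TPM in male WT, 247, 379.8, 357 and 356 in male KO, 303, 333, 309 and 219 in female WT, and 121, 269, 200.3 and 134 in female KO. Female KO 1 and female KO 4 were the lowest of all libraries, and *Dld* was not called in either sex (log2 fold change 0.32 ± 0.20 in males and -0.74 ± 0.27 in females; limma adjusted p = 0.402 and 0.245) or for the difference of -1.06 (limma adjusted p = 0.224).

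*Bckdk* (ENSMUSG00000030802, chr7:127904082-127910221) encodes the inhibitory kinase of the complex and *Ppm1k* (ENSMUSG00000037826, chr6:57506502-57535468) the activating phosphatase. *Bckdk* was measured at 62.7, 88.3, 76.6 and 85.4 TPM in male WT, 81.7, 98.6, 86.9 and 84.5 in male KO, 72.4, 54.9, 63.7 and 56.0 in female WT, and 65.3, 69.9, 59.6 and 59.0 in female KO. *Ppm1k* was measured at 4.57, 4.04, 2.90 and 2.38 TPM in male WT, 2.37, 2.11, 2.22 and 1.87 in male KO, 5.05, 3.70, 5.65 and 2.95 in female WT, and 4.58, 4.86, 2.38 and 4.56 in female KO. Male KO libraries were uniformly low for *Ppm1k* and did not overlap with male WT, although the nearest values were 2.37 and 2.38 TPM. The names of male WT 1 and 2, at 4.57 and 4.04 TPM, lead with 5. Those of male WT 3 and 4 lead with 9, as do those of male KO 2, 3 and 4. The leading part of the names and genotype cannot be fully told apart here. For *Bckdk*, male KO and male WT overlapped, and female KO and female WT overlapped for both genes. In males the log2 fold change of *Ppm1k* was -0.56 ± 0.18 (95% interval -0.98 to -0.14), which did not pass the threshold (limma adjusted p = 0.209), and that of *Bckdk* was 0.18 ± 0.13 (limma adjusted p = 0.458). In females they were -0.08 ± 0.25 for *Ppm1k* and 0.04 ± 0.14 for *Bckdk* (limma adjusted p = 0.873 and 0.874). Female KO 3 was the lowest female library for *Ppm1k*, at 2.38 TPM, and without it the female log2 fold change was 0.13.

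The ratio of *Bckdk* to *Ppm1k* joins both genes within a library. It was 13.7, 21.9, 26.4 and 35.8 in male WT, 34.5, 46.8, 39.1 and 45.2 in male KO, 14.3, 14.9, 11.3 and 19.0 in female WT, and 14.3, 14.4, 25.1 and 12.9 in female KO. The male KO ratios were higher than 3 of the 4 male WT ratios, male WT 4 lay within the male KO range, and the female KO and WT ratios overlapped. The lower male WT ratios, 13.7 and 21.9, were in the libraries whose names lead with 5, a leading part that male KO lacked. All male KO ratios were above all ratios of both female groups.

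A comparison of females with males among KO mice was added after these values were seen. It called 2 of the 10 genes (limma), *Bckdk* and *Ppm1k*, beside 12.1% of all genes tested (1472 of 12210, of which 1336 were lower in females); 3 of the 10 and 3325 of all genes had an unadjusted p under 0.05. *Bckdk* was lower in female KO than in male KO by a log2 fold change of -0.47 ± 0.13 (limma adjusted p = 0.0278), with all 4 female KO libraries below all 4 male KO libraries. *Ppm1k* was higher in female KO, with a log2 fold change of 0.76 ± 0.23 (limma adjusted p = 0.0438). All 4 female KO libraries were above all 4 male KO libraries, although the nearest values were 2.38 TPM (female KO 3) and 2.37 TPM (male KO 1). Both sets of groups thus failed to overlap, 2 of the 10 genes against 18% of all genes tested. Among WT mice the same differences were -0.34 for *Bckdk* and 0.28 for *Ppm1k* (limma adjusted p = 0.959 for each), and the change from WT to KO was not called (interaction -0.13 and 0.48, limma adjusted p = 0.772 and 0.516). The *Ppm1k* interaction was -0.06 with the leading part of the library names as covariate.

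Both calls were near the threshold and were lost in some settings, while the differences kept their direction. With each library left out in turn, the log2 fold change ranged from -0.51 to -0.41 for *Bckdk* and from 0.67 to 0.97 for *Ppm1k*. The call of *Bckdk* was lost without female KO 1 (limma adjusted p = 0.0651), female KO 3 (0.0585), female KO 4 (0.0851), male KO 2 (0.104), male KO 3 (0.0744) or male KO 4 (0.0599). The call of *Ppm1k* was lost without any 1 male KO library (limma adjusted p = 0.0532 without male KO 1, 0.109 without 2, 0.0942 without 3 and 0.107 without 4), female KO 1 (0.126), female KO 2 (0.0817), female KO 4 (0.119), female WT 2 (0.0513) or male WT 3 (0.0534). Without male WT 2, female KO 1 and female KO 4 together, 0 of the 10 genes and 33 of all genes were called, with log2 fold changes of -0.44 for *Bckdk* and 0.58 for *Ppm1k* (limma adjusted p = 0.232 and 0.376). Over all alternatives *Bckdk* was called in 20 of 30 settings (limma adjusted p = 0.00846 to 0.232) and *Ppm1k* in 16 of 29 (0.0114 to 0.376). *Bcat2*, at 0.71 ± 0.23, was just outside (limma adjusted p = 0.0574, ranging from 0.0129 to 0.414, and called in 8 of 30). Median-of-ratios scaling called 4 of the 10 genes, with *Bcat2* among them (limma adjusted p = 0.0182). The count over all genes in that setting stayed within a factor of 1.5 of the 1472 called in the report's fit. The *Bckdk* call was also lost with the leading part of the library names as covariate (log2 fold change -0.40, limma adjusted p = 0.113) and without transcripts of the mitochondrial genome (-0.49, 0.0669). That of *Ppm1k* was lost with no TPM minimum (log2 fold change 0.76, limma adjusted p = 0.104), with a trend on transcript length and GC content removed (0.84, 0.0515) and without the mitochondrial genome (0.79, 0.111). With unmatched transcripts left out as well as mitochondrial ones, both genes were called (-0.49 for *Bckdk* and 0.79 for *Ppm1k*, limma adjusted p = 0.00846 and 0.0487).

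Short transcripts also entered the *Bckdk* values. Bckdk-205, a coding transcript of 724 bases, took 41.6% of the gene's TPM in female KO 1, 27.1% in female KO 4 and 24.6% in male WT 2, the libraries with the most short 3′ transcripts, and at most 12.3% elsewhere. The most abundant transcript, Bckdk-202 of 1792 bases, was at 27.3 and 32.6 TPM in female KO 1 and 4, against 43.04 to 49.98 TPM in female WT. The longer coding transcript Bckdk-201 (3405 bases) was at 10.0 and 10.2 TPM in female KO 1 and 4, against 9.67 to 12.6 TPM in female WT. Bckdk-202 was at 52.3 and 42.0 TPM in female KO 2 and 3, and at 60.1 to 77.9 TPM in male KO. The part of this in the difference between female KO and male KO was not tested.

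**Figure D2:**
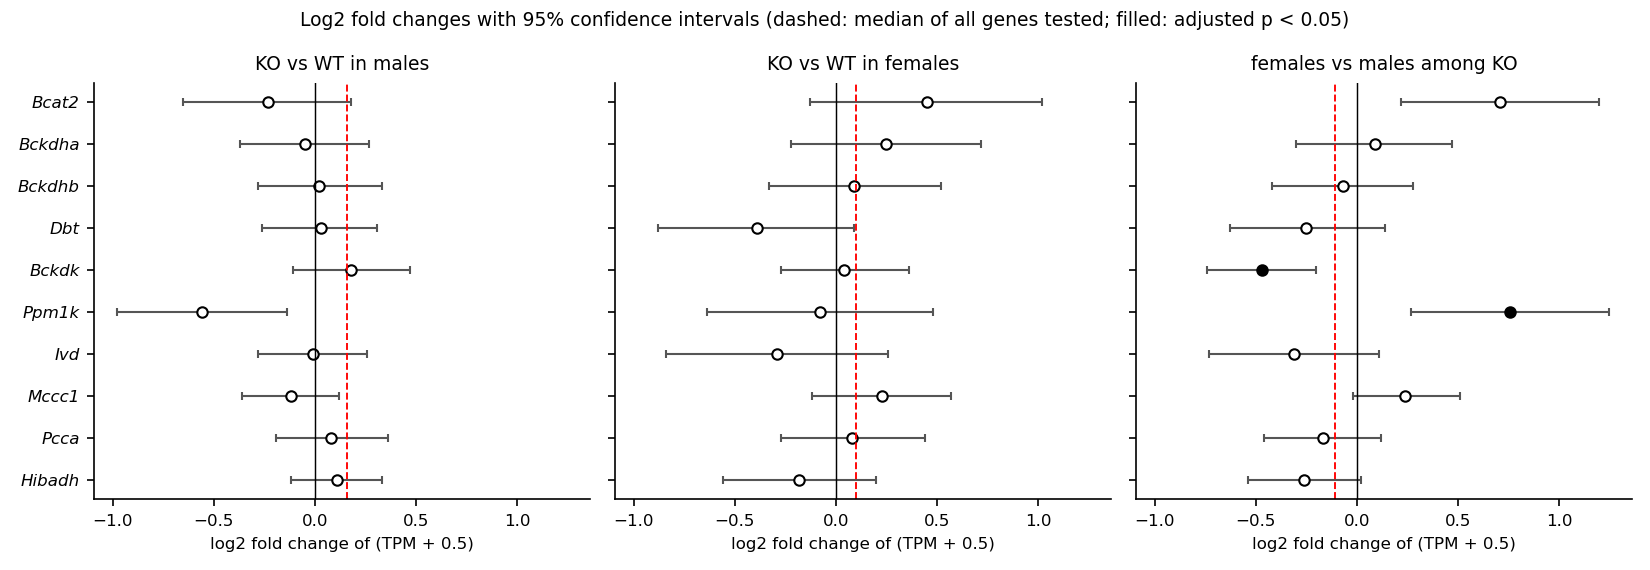
Log2 fold changes of (TPM + 0.5) on the horizontal axis for the 10 genes on the vertical axis, with 95% confidence intervals from limma as bars, for KO against WT in males and in females and for females against males among KO. The dashed line is the median of all genes tested (0.16, 0.10 and -0.11), and filled points mark the 2 called genes, *Bckdk* at -0.47 and *Ppm1k* at 0.76.

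The leucine branch continues with *Ivd* (ENSMUSG00000027332, chr2:118861954-118882909), which encodes isovaleryl-CoA dehydrogenase, and *Mccc1* (ENSMUSG00000027709, chr3:35959312-36000678), which encodes the biotin-carrying subunit of methylcrotonyl-CoA carboxylase. *Ivd* was measured at 114, 123, 132 and 145 TPM in male WT, 129, 128, 145 and 108 in male KO, 149, 116, 156 and 90.6 in female WT, and 87.7, 152, 101 and 81.9 in female KO. Female KO 1, 3 and 4 were low and female KO 2 was high, within the range of female WT, and the male groups overlapped. Its log2 fold change was -0.01 ± 0.12 in males and -0.29 ± 0.24 in females (limma adjusted p = 0.971 and 0.524), and -0.01 in females without female KO 1 and female KO 4. Only 52.7% of the *Ivd* TPM lay on its coding transcripts, the lowest share of the 10 genes. On those alone the female log2 fold change was -0.08.

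*Mccc1* was measured at 77.7, 102, 90.2 and 90.2 TPM in male WT, 77.7, 86.1, 87.1 and 78.5 in male KO, 88.8, 79.3, 95.6 and 70.9 in female WT, and 116, 91.5, 86.8 and 97.6 in female KO. The highest value was in female KO 1, and KO and WT overlapped in both sexes. Its log2 fold change was -0.12 ± 0.11 in males and 0.23 ± 0.15 in females (limma adjusted p = 0.525 and 0.439), with a difference of 0.35 (limma adjusted p = 0.383). The sign depended on which transcripts were counted: on coding transcripts alone the female log2 fold change was -0.40, the male one 0.05 and the difference -0.45 (limma adjusted p = 0.326, 0.798 and 0.380). The partner subunit gene *Mccc2* was even across groups, at 58.2, 69.8, 60.6 and 63.1 TPM in male WT, 56.9, 65.3, 60.0 and 56.5 in male KO, 65.2, 53.7, 60.5 and 50.5 in female WT, and 58.9, 65.8, 53.2 and 60.4 in female KO, with log2 fold changes of -0.08 in males and 0.05 in females (limma adjusted p = 0.676 and 0.838).

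The 2 readings of *Mccc1* differed because of Mccc1-208, a transcript of 468 bases annotated as a retained intron. It was at 4.53, 30.4, 0.000165 and 4.60 TPM in male WT, 2.73, 2.65, 0 and 0 in male KO, 3.97, 0, 4.27 and 4.09 in female WT, and 67.7, 10.3, 20.7 and 45.7 in female KO. It was high in all 4 female KO libraries, most of all in female KO 1 and 4, and in male WT 2, and took 58.2% of the gene's TPM in female KO 1 and 46.8% in female KO 4. The full-length coding transcript Mccc1-201 was in turn lowest in those 2 libraries, at 41.2 and 45.2 TPM, against 57.7 to 83.1 TPM in female WT. These libraries also had the most short 3′ transcripts over the 530 genes above, and the part of that in the *Mccc1* values was not tested.

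*Pcca* (ENSMUSG00000041650, chr14:122534324-122891100) encodes the biotin-carrying subunit of propionyl-CoA carboxylase, which takes up the propionyl-CoA from isoleucine and valine. It was measured at 168, 215, 216 and 232 TPM in male WT, 199, 238, 214 and 224 in male KO, 193, 171, 227 and 149 in female WT, and 203, 202, 194 and 179 in female KO. The groups overlapped in both sexes, with the lowest value in female WT 4. Its log2 fold change was 0.08 ± 0.12 in males and 0.08 ± 0.16 in females (limma adjusted p = 0.724 and 0.783). On coding transcripts, which held 64.0% of its TPM, the female log2 fold change was -0.26 and the male one 0.12 (limma adjusted p = 0.395 and 0.533). A retained-intron transcript of 564 bases, Pcca-205, was at 40.9 TPM in female KO 1, 23.9 in female KO 4 and 13.6 in male WT 2, and at most 2.89 TPM elsewhere. The full-length Pcca-201 was at 63.5 and 66.7 TPM in female KO 1 and 4, against 107 to 144 TPM in female WT.

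The start of both short transcripts is shown because it sets them apart from the coding transcripts of *Mccc1* and *Pcca*. Each is the first exon as given in the GENCODE M21 transcripts, 5′ to 3′, with the retained intron in lower case and the exon shared with the full-length transcript in capitals. Mccc1-208 begins on the minus strand at chr3:35960933-35961109 with 105 intron bases and 72 bases of exon 18 of 19, and Pcca-205 begins on the plus strand at chr14:122886903-122887124 with 144 intron bases and 78 bases of exon 23 of 24. In both cases the shared exon is the next to last of the gene's full-length transcript.
Mccc1-208: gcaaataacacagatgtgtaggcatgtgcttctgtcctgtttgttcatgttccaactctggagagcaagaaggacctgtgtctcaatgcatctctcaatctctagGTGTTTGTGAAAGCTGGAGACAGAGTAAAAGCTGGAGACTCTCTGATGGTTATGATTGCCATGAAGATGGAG
Pcca-205: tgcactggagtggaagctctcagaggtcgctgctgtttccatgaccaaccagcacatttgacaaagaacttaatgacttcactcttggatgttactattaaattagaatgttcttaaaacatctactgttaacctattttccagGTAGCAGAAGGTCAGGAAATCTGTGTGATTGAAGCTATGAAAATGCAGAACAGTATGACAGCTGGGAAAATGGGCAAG

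**Figure D3:**
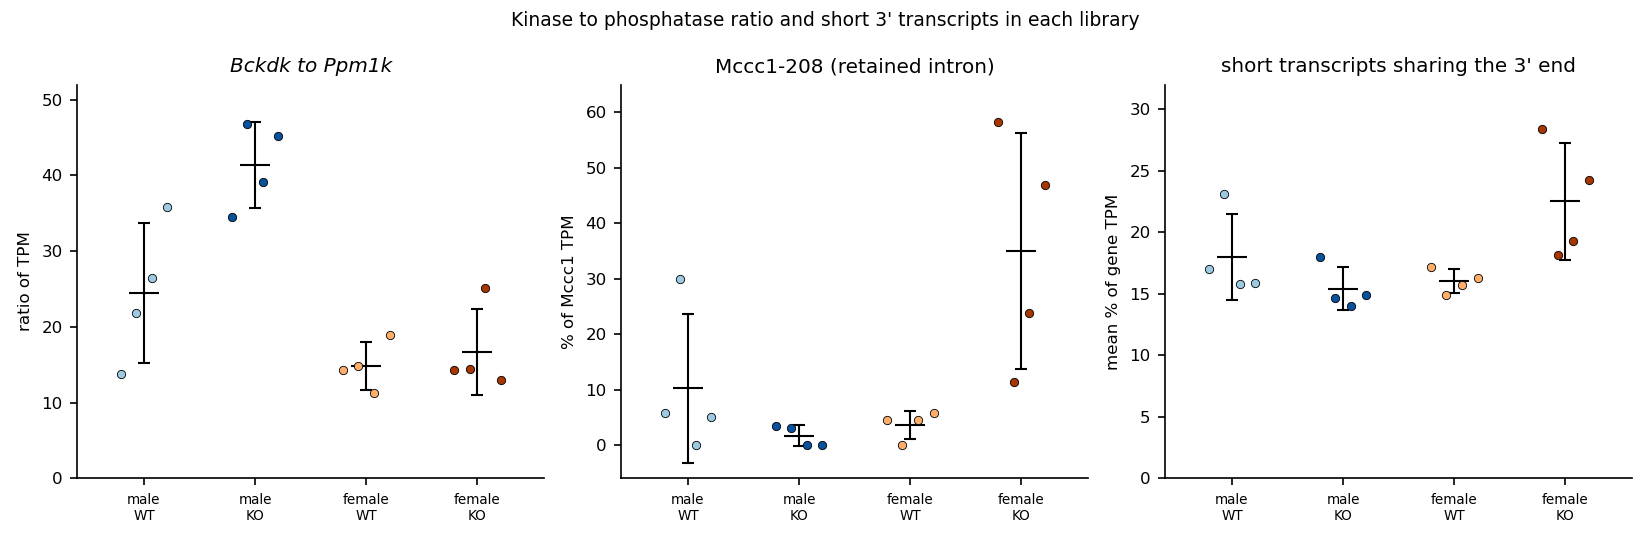
Values in each library (1 point per mouse, with mean and SD as bars) of the ratio of *Bckdk* to *Ppm1k* TPM, the percentage of *Mccc1* TPM on Mccc1-208, and the mean percentage of gene TPM on short transcripts sharing the 3′ end. Male KO ratios range from 34.5 to 46.8, and female KO 1 is highest for both percentages, at 58.2% and 28.4%.

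*Hibadh* (ENSMUSG00000029776, chr6:52546228-52640389) encodes 3-hydroxyisobutyrate dehydrogenase of the valine branch. It was measured at 205, 211, 242 and 246 TPM in male WT, 228, 261, 245 and 238 in male KO, 259, 229.6, 254 and 185 in female WT, and 175, 249, 206 and 188 in female KO. The lowest values were in female KO 1, female WT 4 and female KO 4, and KO and WT overlapped in both sexes. Its log2 fold change was 0.11 ± 0.10 in males and -0.18 ± 0.17 in females, with a difference of -0.29 (limma adjusted p = 0.562, 0.562 and 0.495). *Acad8*, which encodes the isobutyryl-CoA dehydrogenase of the same branch, was at 36.9, 37.3, 41.8 and 37.4 TPM in male WT, 41.1, 48.2, 45.6 and 45.7 in male KO, 43.4, 36.7, 41.7 and 30.8 in female WT, and 27.5, 40.0, 28.4 and 23.4 in female KO, with a log2 fold change of 0.23 ± 0.09 in males and -0.37 ± 0.19 in females and a difference of -0.60 (limma adjusted p = 0.236, 0.342 and 0.240).

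A list of 25 other genes of BCAA breakdown, uptake and carriage was also examined, of which 23 passed the TPM minimum in each comparison. They were not the same 23: *Bcat1* was tested only for KO against WT in males, where *Slc43a1* was not. It had 0 called genes for KO against WT in males, in females, for the difference between the sexes and for the mean effect (limma). Over the settings run, at most 1 gene of the list was called in females and 0 in the rest of these comparisons. Unadjusted p under 0.05 (limma) were reached by 4, 5, 10 and 3 of the 23 in these comparisons, beside 2280 of 12176, 2075 of 12141, and 1735 and 2929 of 12210 genes in all. The 4 in males include *Bcat1*, which was tested there only because it was high in male KO and which is also counted among the higher genes below. In males 15 of the 23 were higher in KO and 8 lower, with a median of 0.08, and in females 10 were higher and 13 lower, with a median of -0.09, beside 0.16 and 0.10 over all genes. Under median-of-ratios factors, 9 were higher and 13 lower in males (median -0.10, with not all 23 passing the minimum), and 8 higher and 15 lower in females (-0.19). Among WT mice, females and males differed in 0 of the 23 (limma; 0 at an unadjusted p under 0.05), and among KO mice in 9, of which 6 were lower in females, beside 12.1% of all genes. Without male WT 2, female KO 1 and female KO 4, the calls among all genes in this comparison fell from 1472 to 33. At most 11 genes of the list were called in it over the settings run. With all libraries, the 9 called genes included *Slc25a44* (-0.53), *Dld* (-0.94), *Acad8* (-0.62), *Auh* (-0.82), *Slc7a8* (1.87) and *Slc43a1* (1.75), with limma adjusted p = 0.0218, 0.0253, 0.0166, 0.00689, 0.00944 and 0.00327. The other 3 were *Mut* (-0.54), *Mmab* (-0.61) and *Klf15* (1.30), with limma adjusted p = 0.0443, 0.0147 and 0.0221.

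Among the transporter genes on that list, *Slc7a8*, which encodes a light chain of a heteromeric amino acid transporter, was at 2.57, 2.57, 1.39 and 1.02 TPM in male WT, 1.44, 1.01, 0.898 and 0.917 in male KO, 2.91, 1.16, 3.16 and 1.37 in female WT, and 6.36, 5.23, 2.04 and 9.99 in female KO. *Slc43a1*, which encodes a transporter of large neutral amino acids, was at 1.70, 1.79, 0.568 and 1.12 TPM in male WT, 0.884, 0.417, 0.740 and 0.559 in male KO, 1.95, 1.33, 1.62 and 1.45 in female WT, and 4.93, 2.20, 2.36 and 4.59 in female KO. For *Slc43a1* all female KO libraries were above all female WT libraries, and for *Slc7a8* 3 of the 4 were. In females their log2 fold changes were 1.19 and 0.88 (limma adjusted p = 0.247 and 0.231), and the differences between the sexes were 1.75 and 1.48 (limma adjusted p = 0.218 and 0.216). *Slc3a2*, which encodes the heavy chain that pairs with light chains such as SLC7A8, was at 69.9 and 93.6 TPM in female KO 1 and 4 and at 20.01 to 39.4 TPM in all others, with a difference between the sexes of 0.62 that was -0.12 without male WT 2, female KO 1 and female KO 4.

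Other genes of the list named by the size of their p were *Acadsb*, of the isoleucine branch, with a log2 fold change of -0.41 ± 0.16 in females (limma adjusted p = 0.263), and *Mmaa*, of the vitamin B12 pathway, with a mean effect of 0.17 (limma adjusted p = 0.203). *Auh*, of leucine breakdown, and *Hlcs*, which attaches biotin to carboxylases, had interaction values of -0.60 and -0.58 that were not called (limma adjusted p = 0.251 and 0.224). *Acat1*, of the last step of isoleucine breakdown, was abundant (mean 399.9 TPM), with log2 fold changes of -0.01 in males and 0.02 in females (limma adjusted p = 0.954 and 0.961).

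The TCA cycle list (13 genes, all tested) had 12 genes higher in male KO and 11 lower in female KO, with medians of 0.13 and -0.23, and 0 called genes in either (limma; 2 and 1 at an unadjusted p under 0.05). Over all genes tested, 9725 of 12176 were higher in male KO and 4533 of 12141 were lower in female KO. With median-of-ratios factors, 5 genes of the TCA list were higher and 8 lower in male KO and 12 were lower in female KO. Among KO mice, 5 of the 13 were called between females and males, beside 12.1% of all genes. *Cs*, *Idh3a*, *Ogdh* and *Mdh2* were lower in females (-0.68, -0.58, -0.83 and -0.52, limma adjusted p = 0.0120, 0.0202, 0.00933 and 0.0131). Within female KO, *Cs*, *Idh3a* and *Ogdh* were lowest in female KO 1 and 4, and *Mdh2* in female KO 3 and 4. Without male WT 2, female KO 1 and female KO 4, the calls among all genes fell from 1472 to 33. The part of these libraries was not tested.

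Markers of other cell types were measured in the same libraries. The summed TPM of 8 macrophage markers was 40.1, 77.2, 49.9 and 77.4 TPM in male WT, 101, 147, 114 and 149 in male KO, 59.7, 64.1, 104 and 46.8 in female WT, and 97.0, 66.4, 70.9 and 87.9 in female KO. The summed TPM of 8 fibroblast markers was 103, 157, 101 and 153 TPM in male WT, 205, 217, 220.1 and 214 in male KO, 145, 128, 189 and 133 in female WT, and 223, 137, 164 and 166 in female KO. In males, all KO libraries were above all WT libraries for both sums. The most abundant genes were *Lyz2* and *Col3a1*, no marker was at 0 in any library, and 7 of 7 tested markers of each list were higher in male KO, with medians of 0.98 and 0.97. None of these markers was called in males (limma, with 7 and 5 at an unadjusted p under 0.05). Over all genes tested in males, 9725 of 12176 were higher in KO. Under median-of-ratios factors the male medians of the markers were 0.82 and 0.80, and 7 of 7 in each list stayed higher. In females the medians were 0.27 for macrophage markers (5 higher and 2 lower in KO) and 0.21 for fibroblast markers (7 higher). There too 0 were called (limma; 1 and 0 at an unadjusted p under 0.05). In the mean effect, whose calls varied widely with the libraries kept, *C1qa*, *C1qb* and *Cd68* were called (0.65, 0.73 and 0.77; limma adjusted p = 0.0424, 0.0427 and 0.0301). So were *Col1a2* and *Pi16* (0.64 and 0.89; limma adjusted p = 0.0347 and 0.0293).

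Endothelial markers (5 genes, most abundant *Cdh5*, none at 0) had sums of 127, 243, 171 and 157 TPM in male WT, 197, 227, 213 and 216 in male KO, 157, 123, 157 and 166 in female WT, and 364, 216, 191 and 296 in female KO. The highest sums were in female KO 1, female KO 4 and male WT 2, the libraries with the most short 3′ transcripts, and all female KO sums were above all female WT sums. In females 0 of the 5 were called (limma; 5 at an unadjusted p under 0.05). All 5 were higher in female KO with a median of 0.76, and *Cdh5* and *Tie1* were called in the mean effect (0.65 and 0.64; limma adjusted p = 0.0358 and 0.0450). The 8 brown adipocyte markers, led by *Ucp1*, had a median of -0.06 in males and 0.21 in females with 0 called (limma; 1 and 0 at an unadjusted p under 0.05). The 4 white adipocyte markers found, of 5 listed and led by *Lep*, had a median of 0.19 and -1.03 with 0 called (1 and 1 at an unadjusted p under 0.05). Females and males among KO differed in *Lep*, *Npr3*, *Retn* and the macrophage marker *Csf1r* (-3.75, -2.70, 2.37 and -0.63; limma adjusted p = 0.0112, 0.00303, 0.00944 and 0.0407). Summed white adipocyte markers were 156, 140.3, 130.1 and 261 TPM in male WT, 181, 228, 191 and 216 in male KO, 82.4, 192, 113 and 179 in female WT, and 91.3, 77.7, 159 and 96.5 in female KO.

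Skeletal muscle, which also breaks down BCAA, was present in varying amounts. The sum of 8 muscle markers, led by *Acta1*, was 1327, 1847, 236 and 18.04 TPM in male WT, 4232, 364, 2334 and 10.5 in male KO, 2.32, 1236, 81.5 and 2.10 in female WT, and 10.6, 6.15, 3707 and 364 in female KO. The libraries within each group differed far more than the groups did, *Myh4* and *Tnni2* were at 0 in female WT 1, and 0 of the 8 were called in either sex (limma; 0 and 0 at an unadjusted p under 0.05; medians 0.48 and 1.26).

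After each gene was standardised over the 16 libraries, the mean profile of the 10 genes was lowest in female WT 4 (-1.37) and female KO 3 (-0.84) and highest in female WT 3 (0.72). The 5 genes of 12210 with the profiles most like it, by the mean absolute difference over 16 libraries, were *Mrps36* (0.322), *Higd1a* (0.347), *Lamtor2* (0.361), *Chmp3* (0.367) and *Mrpl22* (0.368). Single members of the set were farther from their own mean profile, from 0.4597 for *Bckdha* to 0.860 for *Ppm1k*. The 5 genes were picked as the closest of 12210, while the 10 were listed by name. Their distances are therefore no measure of how alike the 10 are.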

How the data were processed

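RNA of BAT from 16 mice was measured as TPM of 137438 transcripts. The authors made the deposited TPM with kallisto 0.46.2 and named the build GRCm39, and the annotation release is not stated. Transcripts were joined to genes by identifier without version with GENCODE M21 (GRCm38): 135051 matched, 37 of which also matched with their version, and 2387 did not match. TPM were summed per symbol to 49066 genes. Read counts were not used here, so depth per library is unknown.

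Genes with a mean of at least 1 TPM in a fit were tested on log2(TPM + 0.5) with limma 3.58.1 (R 4.3.3; trend in the variance prior, two-sided, Benjamini-Hochberg, threshold 0.05). KO and WT were compared in 1 fit per sex. The interaction, the mean KO effect and the sex comparisons came from 1 fit of all 16 libraries, and females against males among KO was added after the values were seen. *Gdf15* was tested by exact permutation over 70 splits. The limma steps were tested on simulated data. Tables and figures were made with Python 3.11.15, pandas 2.3.3, numpy 2.4.6, scipy 1.17.1 and matplotlib 3.10.9.

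The 10 genes and the other lists were chosen with earlier results of these data known, so they were described and not tested as lists. Named genes are the 10, *Gdf15*, *Slc25a44*, *Bcat1*, *Dld* and *Mccc2*, pathway genes called or with the 3 smallest p of a comparison, the most abundant and the called genes of the other lists, and the 5 nearest profiles. Of the genes this rule names, 1 is not reported here. Alternatives changed the pseudocount, the TPM minimum, the variance trend, the scaling, the covariates, the transcripts counted and the libraries kept, 32 settings in all.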

Additional observations from a re-analysis of the deposited data

Results flagged for a closer look

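In each group, a library whose distance from the other 3 was large beside the range of the group was noted, which chance does in about 1 in 20 groups; 6 of 96 groups had one. *Bcat2* in male WT 2 was 94.6 TPM, against 57.6 to 59.8 TPM in the other male WT libraries. *Ppm1k* in female KO 3 was 2.38 TPM, below the 4.56 to 4.86 TPM of the other female KO libraries. *Gdf15* in female KO 3 was 0.0794 TPM, where the other female KO libraries were at 0, so that any value above 0 would have been noted. *Acad8* in male WT 3 was 41.8 TPM, above the 36.9 to 37.4 TPM of its group. *Acadsb* in female WT 4 was 79.2 TPM, with the rest of its group within 1 TPM of each other from 99.4 TPM upward. For *Acat1*, male KO 2 stood at 472 TPM and the others of the group at 401 to 411 TPM.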

How the results depend on the processing

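In all, 32 settings were tried, 5 of them added after the data were seen, and not every result was run under each. The 10 genes had 0 calls in all 23 settings run for KO against WT in males, all 24 in females, and all 30 for the difference between the sexes, the mean KO effect and the sexes among WT. Among KO mice, 0 to 4 of the 10 were called, and 0 in 7 of 30 settings, while 33 to 1994 of all genes tested were called. Values below are those that changed direction and counts or medians that moved, each followed in brackets by the value in the report's fit; values beside gene names are log2 fold changes, and members are the 10 genes. Results in males and in females are KO against WT, and sexes are compared as females against males. The cause of these differences was not tested. The library prefix is the leading part of the library name (5, 8b, 9 or 10), whose meaning is unknown. It is uneven over groups: 3 of 4 male KO libraries have 9, 3 of 4 female WT libraries have 8b, and 0 male libraries have 8b, so prefix and group cannot be fully told apart. A pseudocount of 0.1 in males gave genes called 2 (1). No TPM minimum in males gave genes called 0 (1). No TPM minimum for the mean KO effect gave genes called 54 (358). No TPM minimum between sexes among KO gave genes called 966 (1472), members called 1 (2). A minimum mean TPM of 5 for the mean KO effect gave genes called 177 (358). No trend in the variance fit for the interaction gave genes called 1 (0). One fit of all 16 libraries in males gave genes called 38 (1). One fit of all 16 libraries in females gave genes called 5 (0). The library prefix as covariate in males gave genes called 6 (1), *Dbt* -0.06 (0.03). The library prefix as covariate in females gave genes called 8 (0), *Bckdhb* -0.08 (0.09), *Bckdk* -0.04 (0.04), *Mccc2* -0.08 (0.05), *Acat1* -0.04 (0.02). The library prefix as covariate for the interaction gave *Bckdhb* -0.15 (0.07), *Ppm1k* -0.06 (0.48), *Mccc2* -0.06 (0.13), *Acat1* -0.01 (0.03). The library prefix as covariate for the mean KO effect gave genes called 12 (358), *Bcat2* -0.01 (0.11), *Bckdha* 0.00 (0.10), *Bckdhb* -0.01 (0.06), *Mccc1* 0.00 (0.05). The library prefix as covariate between sexes among WT gave median of the 10 0.16 (-0.07), *Bckdha* 0.03 (-0.22), *Bckdhb* 0.12 (-0.14), *Ivd* 0.19 (-0.03). The library prefix as covariate between sexes among KO gave genes called 657 (1472), members called 1 (2). Median-of-ratios scaling in males gave genes called 3 (1), *Bckdhb* -0.15 (0.02), *Dbt* -0.14 (0.03), *Pcca* -0.09 (0.08), *Hibadh* -0.06 (0.11). Median-of-ratios scaling in females gave *Bckdhb* 0.00 (0.09), *Bckdk* -0.05 (0.04), *Pcca* -0.01 (0.08), *Mccc2* -0.04 (0.05), *Acat1* -0.08 (0.02). Median-of-ratios scaling for the mean KO effect gave *Bcat2* -0.03 (0.11), *Bckdha* -0.03 (0.10), *Bckdhb* -0.08 (0.06), *Bckdk* -0.02 (0.11), *Mccc1* -0.08 (0.05), *Pcca* -0.05 (0.08). Median-of-ratios scaling between sexes among WT gave genes called 14 (8), *Ivd* 0.01 (-0.03). Median-of-ratios scaling between sexes among KO gave members called 4 (2), *Bckdhb* 0.05 (-0.07). Leaving out the mitochondrial genome in males gave genes called 12 (1), *Bckdhb* -0.08 (0.02), *Dbt* -0.08 (0.03), *Pcca* -0.02 (0.08). Leaving out the mitochondrial genome in females gave *Acat1* -0.03 (0.02). Leaving out the mitochondrial genome for the mean KO effect gave *Bckdhb* -0.02 (0.06), *Mccc1* -0.02 (0.05). Leaving out the mitochondrial genome between sexes among WT gave *Bcat2* -0.05 (0.03), *Hibadh* -0.06 (0.03). Leaving out the mitochondrial genome between sexes among KO gave genes called 510 (1472), members called 0 (2). Protein-coding transcripts alone in males gave genes called 18 (1), *Mccc1* 0.05 (-0.12), *Acadsb* 0.03 (-0.04), *Acat1* 0.07 (-0.01). Protein-coding transcripts alone in females gave *Ppm1k* 0.00 (-0.08), *Mccc1* -0.40 (0.23), *Pcca* -0.26 (0.08), *Mmaa* -0.17 (0.10), *Acat1* -0.29 (0.02). Protein-coding transcripts alone for the interaction gave *Bckdhb* -0.13 (0.07), *Mccc1* -0.45 (0.35), *Pcca* -0.39 (0.00), *Acat1* -0.36 (0.03). Protein-coding transcripts alone for the mean KO effect gave genes called 719 (358), *Mccc1* -0.17 (0.05), *Pcca* -0.07 (0.08). Protein-coding transcripts alone between sexes among WT gave *Ivd* 0.09 (-0.03), *Hibadh* -0.02 (0.03). Protein-coding transcripts alone between sexes among KO gave *Ivd* 0.07 (-0.31), *Mccc1* -0.46 (0.24). The settings that follow were added after the data were seen. Median-of-ratios factors in 1 fit in males gave genes called 49 (1), *Bckdhb* -0.15 (0.02), *Dbt* -0.14 (0.03), *Pcca* -0.09 (0.08), *Hibadh* -0.06 (0.11). Median-of-ratios factors in 1 fit in females gave genes called 566 (0), *Bckdhb* 0.00 (0.09), *Bckdk* -0.05 (0.04), *Pcca* -0.01 (0.08), *Mccc2* -0.04 (0.05), *Acat1* -0.08 (0.02). Prefix covariate plus median-of-ratios factors in males gave genes called 6 (1), median of the 10 -0.20 (0.01), *Bckdhb* -0.12 (0.02), *Dbt* -0.22 (0.03), *Bckdk* -0.01 (0.18), *Pcca* -0.15 (0.08), *Hibadh* -0.14 (0.11), *Slc3a2* -0.03 (0.23). Prefix covariate plus median-of-ratios factors in females gave genes called 6 (0), *Bckdhb* -0.09 (0.09), *Bckdk* -0.05 (0.04), *Mccc2* -0.10 (0.05), *Acat1* -0.05 (0.02). Prefix covariate plus median-of-ratios factors for the mean KO effect gave genes called 117 (358), *Bcat2* -0.08 (0.11), *Bckdha* -0.08 (0.10), *Bckdhb* -0.09 (0.06), *Bckdk* -0.03 (0.11), *Mccc1* -0.08 (0.05), *Pcca* -0.03 (0.08). Prefix covariate plus median-of-ratios factors between sexes among WT gave genes called 5 (8), *Bckdhb* 0.01 (-0.14), *Ivd* 0.08 (-0.03). Prefix covariate plus median-of-ratios factors between sexes among KO gave members called 4 (2), *Bckdhb* 0.02 (-0.07). Leaving out mitochondrial and unmatched transcripts in males gave genes called 12 (1), *Bckdhb* -0.09 (0.02), *Dbt* -0.08 (0.03), *Pcca* -0.02 (0.08), *Hibadh* 0.00 (0.11). Leaving out mitochondrial and unmatched transcripts in females gave *Bckdhb* -0.06 (0.09), *Bckdk* -0.11 (0.04), *Pcca* -0.07 (0.08), *Mccc2* -0.10 (0.05), *Mmaa* -0.05 (0.10), *Acat1* -0.14 (0.02). Leaving out mitochondrial and unmatched transcripts for the interaction gave *Pcca* -0.05 (0.00), *Acat1* -0.02 (0.03). Leaving out mitochondrial and unmatched transcripts for the mean KO effect gave genes called 543 (358), *Bcat2* -0.02 (0.11), *Bckdha* -0.03 (0.10), *Bckdhb* -0.07 (0.06), *Bckdk* -0.02 (0.11), *Mccc1* -0.08 (0.05), *Pcca* -0.05 (0.08). Removing a trend on length and GC in males gave *Acat1* 0.02 (-0.01). Removing a trend on length and GC in females gave *Bckdk* -0.05 (0.04), *Ppm1k* 0.16 (-0.08). Removing a trend on length and GC for the interaction gave *Pcca* -0.01 (0.00). Removing a trend on length and GC for the mean KO effect gave *Bckdha* 0.00 (0.10). Omitting male WT 2, female KO 1 and female KO 4 in females gave genes called 1 (0). Omitting male WT 2, female KO 1 and female KO 4 for the interaction gave genes called 1 (0), *Bckdhb* -0.12 (0.07), *Ivd* 0.01 (-0.28), *Slc3a2* -0.12 (0.62). Omitting male WT 2, female KO 1 and female KO 4 for the mean KO effect gave genes called 29 (358), *Hibadh* 0.03 (-0.04). Omitting male WT 2, female KO 1 and female KO 4 between sexes among WT gave *Hibadh* 0.00 (0.03). Omitting male WT 2, female KO 1 and female KO 4 between sexes among KO gave genes called 33 (1472), members called 0 (2), *Bckdha* -0.06 (0.09).

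Replicate numbers are shared between groups, so a block on the number was also fitted. The replicate block in males gave genes called 0 (1). The replicate block in females gave genes called 1 (0). The replicate block for the mean KO effect gave genes called 60 (358). The replicate block between sexes among KO gave members called 1 (2). The correlation of KO and WT libraries with the same number, after group means were removed, was 0.20, -0.09, 0.04 and 0.35 for male pairs 1 to 4 and 0.15, -0.11, -0.07 and 0.06 for female pairs. Pairing was therefore not taken as given, and the block changed no other call among the 10 genes: the call lost among KO mice was that of *Bckdk* (limma adjusted p = 0.0511).

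With each library left out in turn, the lowest and highest values were as follows. Single omissions in males gave genes called 0 to 5 (1), *Bckdha* -0.15 to 0.07 (-0.05), *Bckdhb* -0.06 to 0.13 (0.02), *Dbt* -0.06 to 0.11 (0.03), *Ivd* -0.07 to 0.07 (-0.01), *Pcca* -0.02 to 0.14 (0.08), *Acat1* -0.07 to 0.02 (-0.01). Single omissions in females gave genes called 0 to 9 (0), *Bckdhb* -0.01 to 0.22 (0.09), *Bckdk* -0.01 to 0.12 (0.04), *Ppm1k* -0.23 to 0.13 (-0.08), *Pcca* -0.01 to 0.19 (0.08), *Mccc2* 0.00 to 0.12 (0.05), *Acat1* -0.08 to 0.07 (0.02). Single omissions for the interaction gave genes called 0 to 3 (0), *Bckdhb* -0.03 to 0.20 (0.07), *Pcca* -0.10 to 0.11 (0.00), *Acat1* -0.06 to 0.09 (0.03). Single omissions for the mean KO effect gave genes called 31 to 1055 (358). Single omissions between sexes among WT gave *Bcat2* -0.07 to 0.20 (0.03), *Ivd* -0.14 to 0.12 (-0.03), *Hibadh* -0.03 to 0.13 (0.03). Single omissions between sexes among KO gave genes called 432 to 1994 (1472), members called 0 to 3 (2), *Bckdha* -0.02 to 0.20 (0.09), *Bckdhb* -0.15 to 0.06 (-0.07).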
